A study of Mus musculus with 44 samples.

Results

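The 5′-halves and 5′ tRFs of glutamate tRNAs are pieces cut from the front end of glutamate transfer RNAs, counted here among the tRNA-derived fragments (tRFs) of the hypothalamus, which controls appetite and metabolism in mice as in other mammals. They are the 47 tRFs, of 17051 in the count table, that are listed for glutamate tRNAs alone (anticodon CTC, TTC or both), are typed as 5′-half or 5′-tRF, and reach at least 220 counts summed over 44 libraries. There are 14 5′-halves of 31 to 35 nt and 33 5′ tRFs of 23 to 50 nt. The count minimum is a measured value, so the abundance of the members is given as a description. Of 178 glutamate-only 5′ fragments of any count, the last ones inside the minimum had 238 and 230 counts and the first ones outside it had 202 and 199 counts.

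The tissue came from C57Bl/6J mice in 3 groups. AM132 (16 libraries) stands for mice made obese by a high-fat diet and given an intravenous locked nucleic acid oligonucleotide of 16 nt complementary to miR-132. AM608 (16 libraries) stands for mice made obese in the same way and given an oligonucleotide of 15 nt against the primate-specific miR-608, which has no predicted target sequence in mice and served as the control. The diet had lasted 11 weeks when both received 3.3 mg/kg daily for 3 days, and the brains were collected 7 days later. RCD (12 libraries) stands for lean mice of matched age on regular chow; the labels do not describe them as injected, so obesity, injection and oligonucleotide cannot be told apart in a comparison with RCD. The labels name 4 batches without saying what a batch is: batches 1 and 3 each had 4 libraries of AM132 and 4 of AM608, batch 2 had 8 of AM132, 8 of AM608 and 4 of RCD, and all 8 libraries of batch 4 were RCD. Group comparisons were therefore made with batch as a term (AM132 against AM608) or inside batch 2 (both against RCD). Each library is labelled as a separate sample, and the p-values measure the spread between these samples.

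Transfer RNAs carry amino acids to the ribosome and read codons with 3 bases, the anticodon, at the tip of a loop. Ribonucleases such as angiogenin cut in that loop, above all under stress, and leave a 5′-half and a 3′-half; cuts nearer the 5′ end leave shorter 5′ tRFs. The 5′-halves of glutamate tRNAs are among the abundant tRNA fragments in many mammalian tissues. Small-RNA libraries read only fragments whose ends the kit can join to adapters, so the counts describe that fraction.

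All 47 members start at base 1 of the mature tRNA and differ in where they end; their sequences are those of the deposited table. The 7 most abundant members are one GluCTC sequence with 7 ends, at 31 to 36 and 39 nt, and the CTC anticodon lies at positions 34 to 36.

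The 5′-halves of 32 to 35 nt thus end just before the anticodon or inside it. The 36-nt fragment, which the table types as a 5′ tRF, ends with its last base. In the text a fragment is called by its tRNA and length, such as the GluCTC 33-nt 5′-half.

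The GluTTC members fall into 5 sequence forms, and the 2 main ones are shown at 30 nt, a length with small p-values below, and at 33 nt, where their levels were steadiest; the anticodon TTC would follow at positions 34 to 36.
tRF-30-86J8WPMN1E8Y: tcccacatggtctagcggttaggattcctg
tRF-30-86V8WPMN1E8Y: tcccatatggtctagcggttaggattcctg
tRF-33-86J8WPMN1E8Y0E: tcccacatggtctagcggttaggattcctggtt
tRF-33-86V8WPMN1E8Y0E: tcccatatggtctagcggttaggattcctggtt

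Form A (17 members) and form B (10 members) share 10 lengths, and at each of them they differ by the single substitution C6T, with form A's letter first, the position counted from 1 at the 5′ end, and form B's letter last. Form B had 22% to 68.1% of the counts of form A at the same length (median 43.8%).

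The 3 remaining forms, C (23 nt), D (33 nt) and E (30 and 31 nt), are minor, and each lies close to another tRNA's fragments. Form E is shown at 31 nt because its near neighbours are not glutamate fragments.
tRF-31-PER8YP9LON4VD: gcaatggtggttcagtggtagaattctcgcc

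Form C reads as the start of the GluCTC sequence with a short stretch left out. Form D differs from the GluCTC 33-nt 5′-half by a single letter and has 0.176% of its counts. Form E (31 and 30 nt) differs by C4A from fragments of the same lengths that the table lists for GlyCCC and ValCAC, at 72.5% and 57.6% of their counts. How reads were shared between such similar sequences is not stated. Forms C and D are therefore uncertain as GluTTC rather than GluCTC fragments, and form E is uncertain as a glutamate fragment.

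The members held 985060 of 4569025 tRF counts, or 21.56%, with 12.5% in the 5′-halves and 9.11% in the 5′ tRFs. The 16 GluCTC members held 93.5% of the members' counts, form A 4.49% and form B 1.66%. The GluCTC 36-nt fragment had 238175 counts, the 35-nt 5′-half 210999 and the 33-nt 5′-half 202897, and these 3 held 66.2% of the members' counts. The next were the GluCTC 34-nt 5′-half with 102704 counts, the 31-nt fragment with 92260, the 32-nt 5′-half with 30532 and the 39-nt fragment with 26131; the most abundant GluTTC member, the form A 29-nt fragment, had 10014 counts. A library had 38619 to 221358 tRF counts in all, which is 0.940 to 5.76 tRF counts per 100 miRNA counts. Where in the mouse genome the fragments arise was not determined: RefSeq lists 20 glutamate tRNA genes on 10 chromosomes of GRCm38.p6 (12 CTC, 8 TTC), and 19 members list a tRNA location beyond the last gene of the mouse chromosome of that number, so those locations are not positions in that assembly. Whether the tRNA reference behind the table was a mouse one is not known, and the tRNA names, anticodons and base positions used here are the table's.

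In the libraries, the members together took a median of 24.1% of tRF counts in AM132 (7.04% to 30.4%, n = 16), 20.7% in AM608 (9.73% to 30.8%, n = 16) and 20.2% in RCD (14.7% to 29.7%, n = 12). The 3 ranges overlap. In whole tissue, fewer cells of a type and less RNA per cell cannot be told apart. The lowest library, AM132 12, has a 95% Wilson interval of 6.86% to 7.22%, which covers counting error only and is narrow beside the spread between libraries. Batch 2 holds the low end in both obese groups: its 8 AM132 libraries had a median of 17.2% and its 8 AM608 libraries one of 16.0%, against 27.5% and 22.1% in batch 1. The GluTTC members alone took a median of 1.52% in AM132 (0.782% to 3.23%), 1.17% in AM608 (0.774% to 1.76%) and 2.10% in RCD (0.831% to 2.95%), and 8 of the 12 RCD libraries are from batch 4. Inside batch 2 AM132 had the highest median, with 1.65%, against 1.24% in AM608 and 1.49% in RCD.

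**Figure D1:**
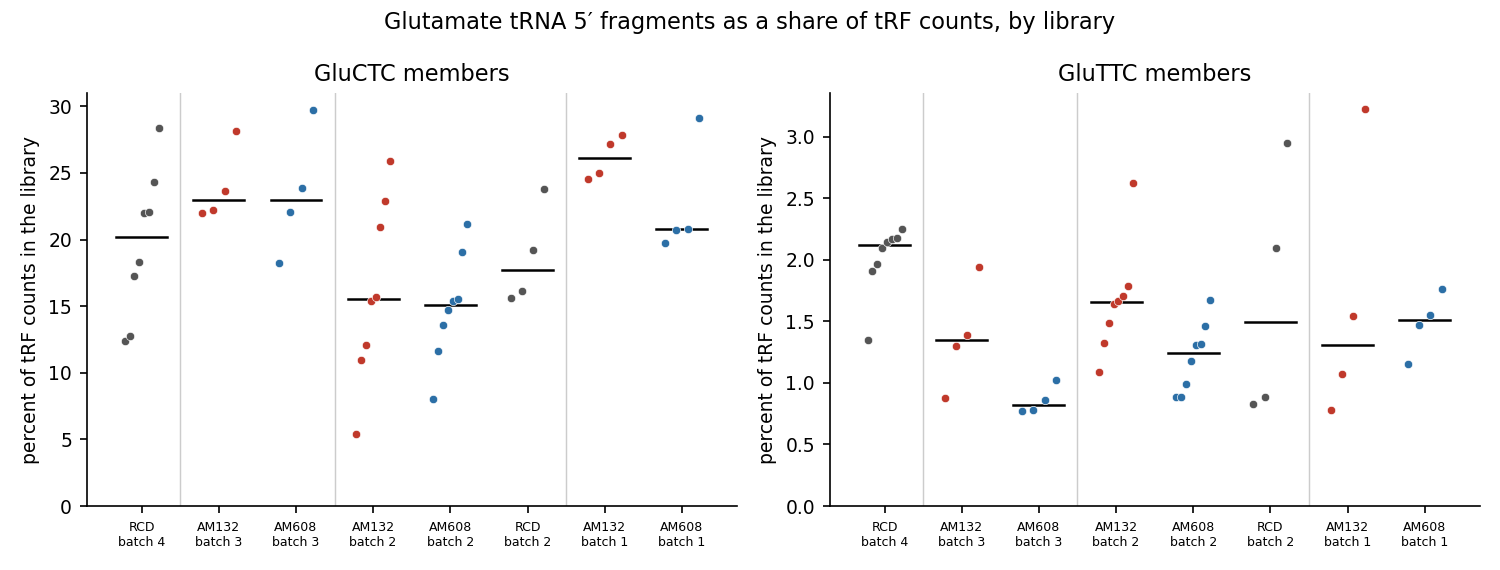
Percent of each library's tRF counts held by the GluCTC members (left) and the GluTTC members (right), 1 point per library, grouped by treatment and batch, with the median of each group as a line. The lowest GluCTC share is 5.40% (AM132 12, batch 2) and the highest 29.7% (AM608 16, batch 3), and the groups overlap within each batch.

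The GluCTC fragments ended at a few preferred positions. Over all libraries 22.02% of GluCTC member counts ended at position 33, 11.15% at 34, 22.9% at 35 and 25.8% at 36, while 0.597% and 0.257% ended at 37 and 38, just past the anticodon. A smaller peak lay at 31 (10.0%) and another at 39 (2.84%). Form A had other ends: 22.64% of its counts ended at position 29, 18.5% at 33, 13.14% at 36 and 11.3% at 26. No GluCTC member is shorter than 31 nt.

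The balance between the 33-nt and 36-nt ends varied from library to library. The 36-nt end took a median of 22.7% of GluCTC counts in AM132 (5.04% to 35.9%), 29.1% in AM608 (3.57% to 36.9%) and 21.1% in RCD (2.87% to 30.4%). The 33-nt end took a median of 25.8% in AM132 (14.3% to 33.4%), 18.3% in AM608 (11.8% to 36.2%) and 26.2% in RCD (19.8% to 35.1%). All these ranges overlap, and AM608 had the highest median for the 36-nt end and the lowest for the 33-nt end.

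A set of 4 libraries stood apart, and an earlier analysis of these data had singled out the same 4 for their few lysine 5′-halves of 35 nt (0.400% to 2.05% of tRF counts, against 1.63% to 16.2% in the other 40, so AM132 8 lies within the range of the others). The 36-nt end took 7.85% of GluCTC counts in AM132 8, 5.04% in AM132 12, 3.57% in AM608 8 and 2.87% in RCD 10, against 14.06% to 36.9% in the other 40 libraries. Their 31-nt end took 32.59%, 19.9%, 23.9% and 33.1%, against 2.59% to 21.3% elsewhere, so AM132 12 lay within the range of the others at that end. Form A moved the same way, with 1.45% to 3.21% of its counts at 36 nt in these 4 libraries and 3.82% to 37.02% in the others. Internal and 3′ fragments of glutamate tRNAs took 1.64% to 2.34% of tRF counts in the 4 and 3.37% to 16.7% in the others. All 4 are in batch 2, so the group comparisons below are also given without them.

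**Figure D2:**
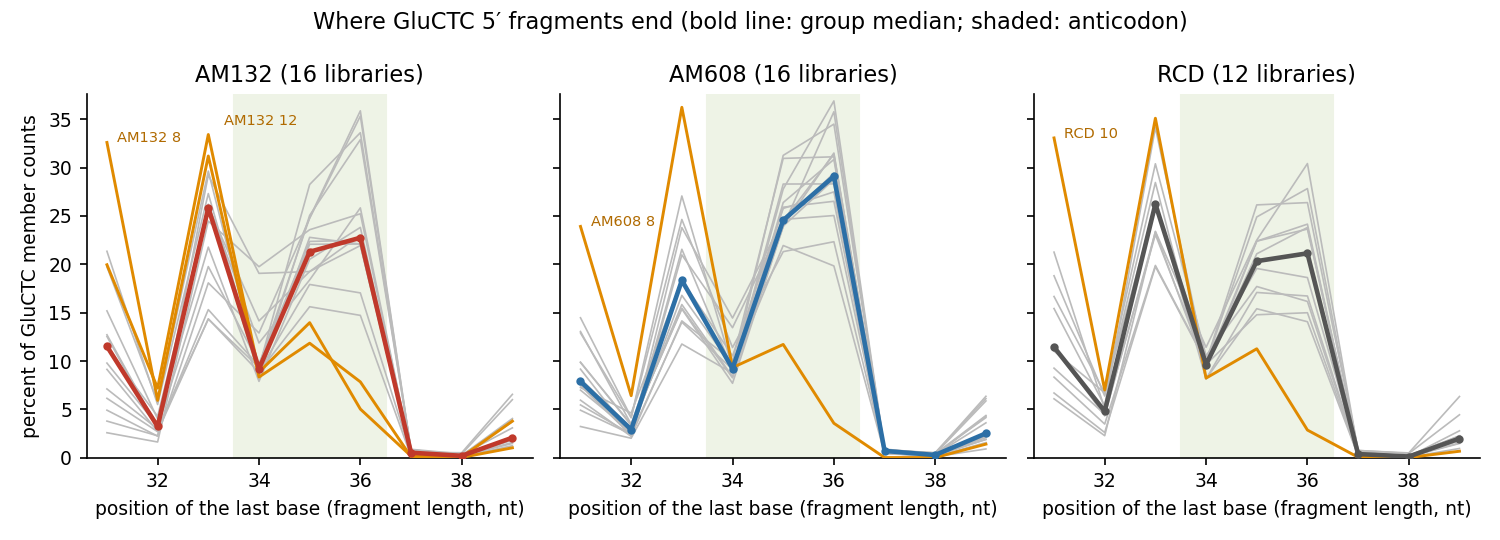
Percent of a library's GluCTC member counts (vertical) by the position of the fragment's last base (horizontal, nt from the 5′ end), 1 thin line per library and a bold line for the group median, for AM132, AM608 and RCD; the shaded band covers positions 34 to 36. The 4 orange libraries (AM132 8, AM132 12, AM608 8 and RCD 10) have 2.87% to 7.85% at position 36, against 14.06% to 36.9% in the other 40.

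The members differed widely in how steady they were across libraries. Levels are given as scaled CPM, a fragment's counts relative to the library's tRF total after TMM scaling over all 44 libraries. The form A and form B 33-nt 5′-halves were the steadiest: the highest library was 3.09 times the lowest for form A (1050 to 3243 scaled CPM) and 3.134 times for form B (439 to 1376 scaled CPM). The GluCTC 32-nt 5′-half spanned 4.37 times and the GluCTC 31-nt fragment 9.56 times. At the other end, the GluCTC 36-nt fragment spanned 70.0 times (1962 to 137267 scaled CPM) and the GluCTC 43-nt fragment 236 times (8.71 to 2053 scaled CPM). The lowest value of the 43-nt fragment, in RCD 7, is near the floor of the counts, so the size of its span is uncertain. Over the 37 members above 0 in every library the median span was 22.5 times, and the other 10 members were at 0 in up to 11 libraries.

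The comparison of AM132 with AM608 asks whether the anti-miR-132 oligonucleotide moved these fragments in the obese hypothalamus. None of them passed the test: 35 members had enough counts to be tested, and 0 were called by edgeR's quasi-likelihood test with Benjamini-Hochberg adjustment at 0.05, as were 0 of all 494 tRFs tested (0%). Of these members 5 had an unadjusted p under 0.05, against 33 of 494 tRFs (6.68%), and DESeq2 also called 0 members, with 5 at an unadjusted p under 0.05; that count was 0 with TMM over both tables (miRNAs and tRFs together) and 7 with library totals. The log2 fold changes leaned to the positive side: 27 of 35 members were positive with a median of 0.37, beside 261 of 494 tRFs (52.8%) and a median of 0.01 over all tested. The members are nested pieces of a few tRNAs, so their fold changes are not independent of one another. The other 12 members had too few counts in too few libraries to be tested.

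Among the 5′-halves the GluCTC 35-nt one had the most counts in total, 210999 against 202897 for the 33-nt one. By mean share of a library's tRF counts, the GluCTC 33-nt 5′-half came first. It had 13010, 48470 and 133108 scaled CPM (lowest, median, highest) in 16 AM132 libraries, against 16449, 38362 and 117681 scaled CPM in 16 AM608 libraries. The ranges almost coincide, and 11 of 16 AM132 libraries lay above the mean log2 level of AM608 in their batch. The log2 fold change was 0.38 ± 0.20 (SE; edgeR adjusted p = 0.642). By an exact two-sided permutation test inside each batch, the difference of mean log2 CPM was 0.21 in batch 1 (p = 0.486), 0.36 in batch 2 (p = 0.273) and 0.27 in batch 3 (p = 0.571), with adjusted p = 0.754 for each over 6 such tests; with 4 libraries against 4 no p below 0.0286 is possible.

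The most abundant 5′ tRF was the GluCTC 36-nt fragment, which reaches through the anticodon. It had 1962, 46322 and 137267 scaled CPM in the AM132 libraries, against 2615, 62882 and 123858 scaled CPM in the AM608 libraries. The groups overlap almost fully, with 7 of 16 AM132 libraries below the mean log2 level of AM608 in their batch. The log2 fold change was −0.18 ± 0.31 (SE; edgeR adjusted p = 0.860). The difference of mean log2 CPM was −0.25 in batch 1 (exact permutation p = 0.886), −0.39 in batch 2 (p = 0.595) and −0.13 in batch 3 (p = 0.629).

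The smallest p-values belonged to GluTTC fragments of 30 and 31 nt. The form A 30-nt fragment had 266, 551 and 1658 scaled CPM in AM132, against 158, 431 and 827 scaled CPM in AM608. Its highest library was AM132 8, one of the 4 with few 36-nt ends, and the ranges overlap. Its log2 fold change was 0.60 ± 0.23 (SE; p = 0.0157, edgeR adjusted p = 0.642), on 12 to 162 raw counts per library. The form B 30-nt fragment averaged 347 ± 193 scaled CPM in the AM132 libraries and 238 ± 135 in the AM608 libraries (SD over 16 each), with a log2 fold change of 0.65 ± 0.29 (SE; edgeR adjusted p = 0.642). The form B 31-nt fragment averaged 473 ± 299 scaled CPM in AM132 and 342 ± 174 in AM608, with 0.61 ± 0.27 (SE; the same adjusted p). Both rest on few reads, with medians of 24.5 and 34 raw counts per library.

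Among the other abundant members the differences were also within the spread. The GluCTC 31-nt fragment had a mean of 24339 ± 12642 scaled CPM in AM132 libraries and of 19341 ± 8822 in AM608 libraries, and the 32-nt 5′-half 7621 ± 2412 in AM132 and 6690 ± 2290 in AM608. The GluCTC 34-nt 5′-half averaged 29375 ± 25992 in AM132 and 24284 ± 16524 in AM608. On the other side, the GluCTC 35-nt 5′-half averaged 51355 ± 31184 in AM132 and 59268 ± 30619 in AM608, and the 39-nt fragment 5951 ± 3285 in AM132 and 7476 ± 4949 in AM608 (all ± SD over 16 libraries). The form A 29-nt fragment averaged 2593 ± 1562 in AM132 and 2033 ± 1388 in AM608. Their adjusted p-values were 0.642 to 0.830.

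The sign of the fold change followed the length of the fragment, in bands that were chosen after the values were seen and carry no test. All 22 tested members of 23 to 34 nt were positive (median log2 fold change 0.43, from 0.22 to 0.65), whether GluCTC, form A or form B. Of 10 tested members of 35 to 40 nt, 2 were positive and 8 negative (median −0.20), among them all 6 GluCTC ones. The 3 tested members above 40 nt, GluCTC fragments of 42, 43 and 50 nt, were positive, with SEs of 0.43 to 0.67. By batch, 9 of 23 tested members of 23 to 34 nt were positive in batch 1, 21 of 21 in batch 2 and 23 of 24 in batch 3, and of the 35-to-40-nt members 0 of 9, 1 of 9 and 7 of 12 were positive. Counted over all lengths, 12 of 35 members were positive in batch 1, 22 of 33 in batch 2 and 31 of 37 in batch 3, so the lean to the positive side was not shared by batch 1. A test of whether the AM132 effect differed between batches called 0 of 35 members, against 5 of 494 tRFs (1.01%); 2 members had an unadjusted p under 0.05, against 22 of 494 tRFs (4.45%). Without the 4 libraries with few 36-nt ends, 23 of 23 tested members of 23 to 34 nt were positive (median 0.40).

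**Figure D3:**
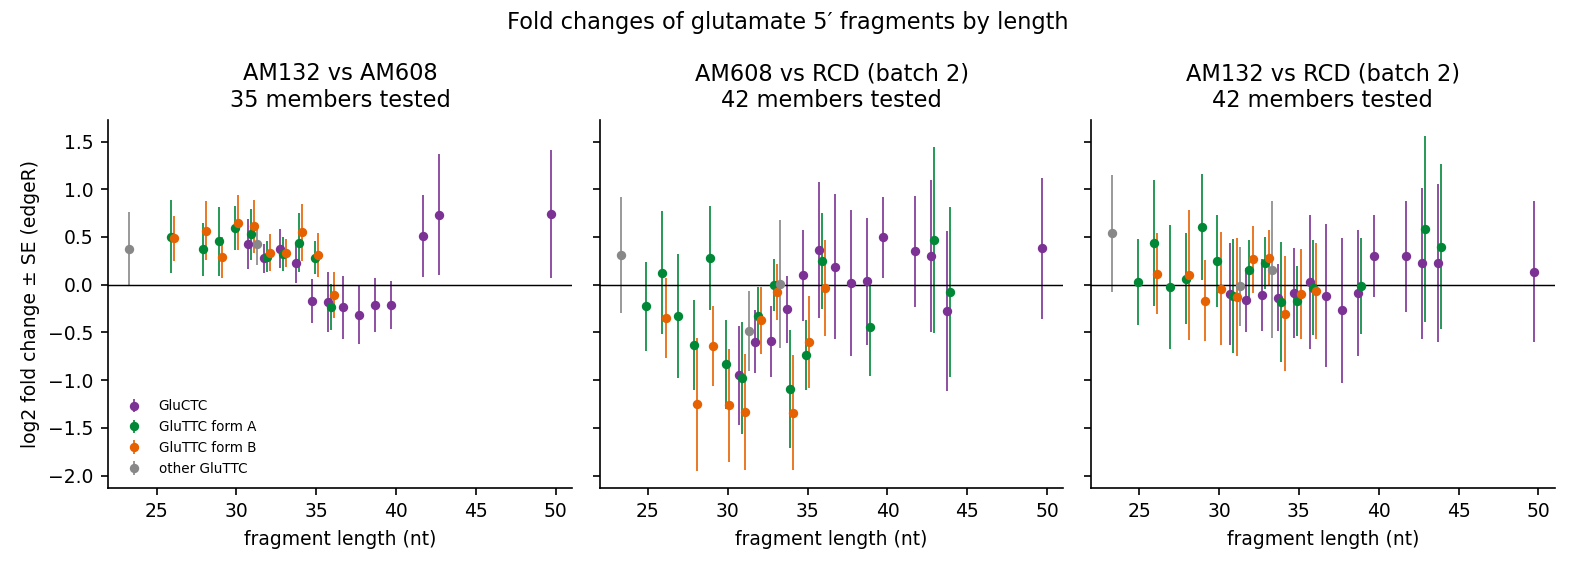
log2 fold change with its SE (edgeR; vertical) against fragment length in nt (horizontal) for the tested members, coloured by sequence form, in AM132 against AM608 (left), AM608 against RCD in batch 2 (middle) and AM132 against RCD in batch 2 (right). In the left panel the members up to 34 nt lie at 0.22 to 0.65 and the GluCTC members of 35 to 40 nt below 0; 0 members passed the test in any panel.

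Fragments of other parts of glutamate tRNAs did not lean the same way between AM132 and AM608. Of 58 tested internal and 3′ fragments of glutamate tRNAs 22 were positive, with a median of −0.10 and 0 calls. Among 5′-halves and 5′ tRFs of other tRNAs, 19 of 22 histidine, 32 of 43 lysine, 14 of 20 glycine and 6 of 8 valine fragments were positive, with medians of 0.27, 0.18, 0.10 and 0.07 and 0 calls in each. A lean to the positive side was thus present in those lists as well, and the difference between them and glutamate was not tested.

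**Figure D4:**
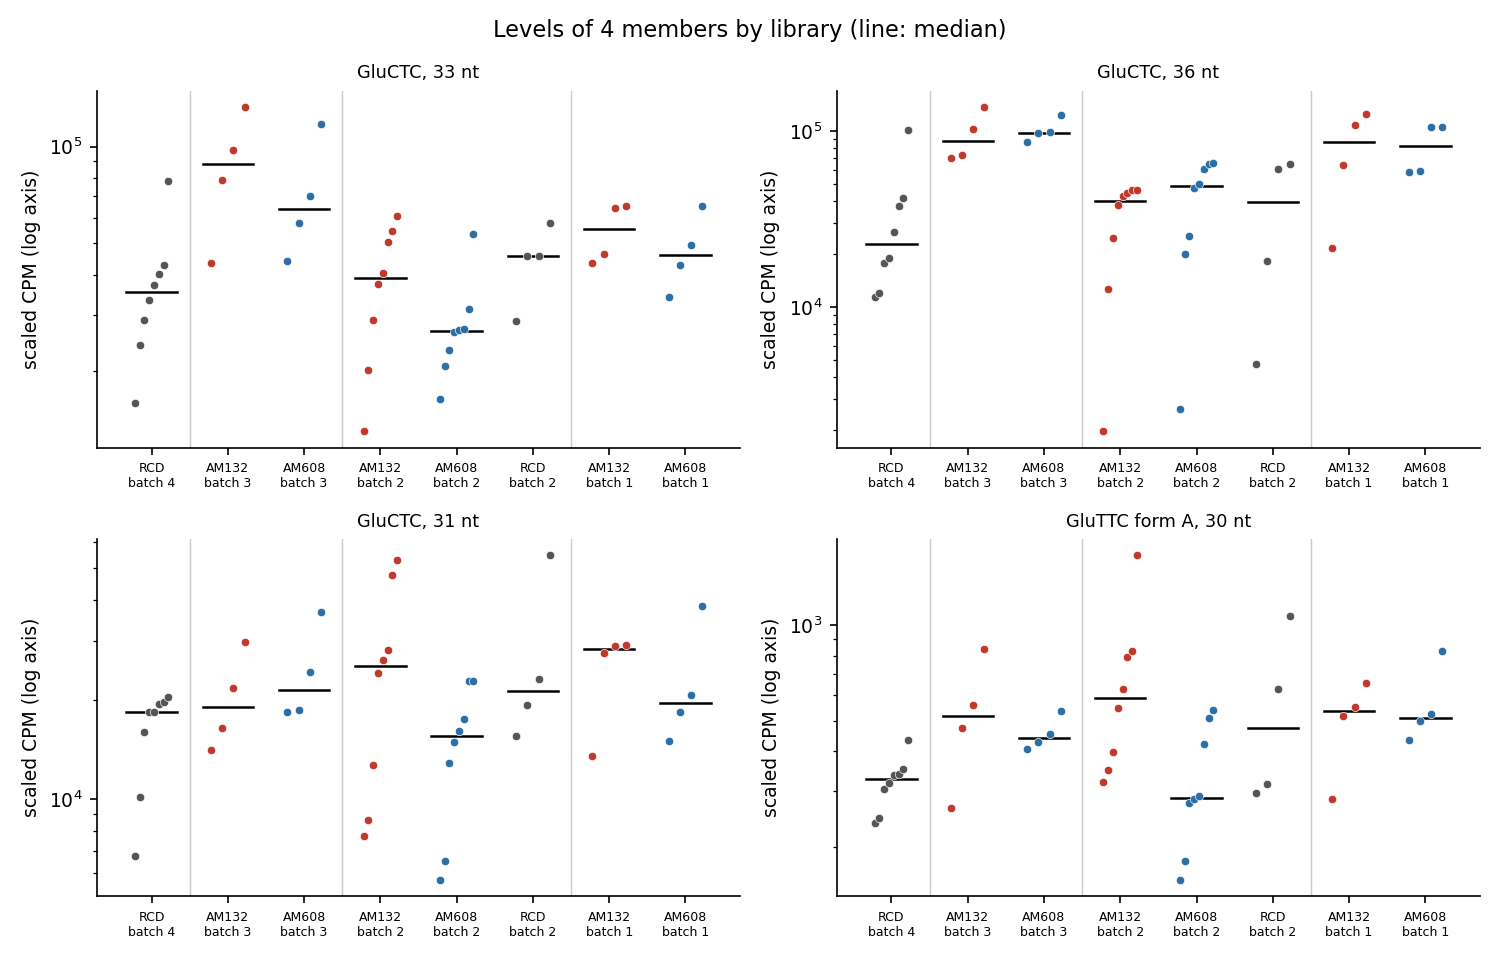
Scaled CPM (log axis) of 4 members in every library, grouped by treatment and batch, with group medians as lines. The 36-nt panel shows the low libraries of batch 2, 1962 in AM132 12, 2615 in AM608 8 and 4742 in RCD 10, and in all 4 panels AM132 and AM608 overlap within each batch.

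AM608 was set against RCD inside batch 2, obese control-oligonucleotide mice against lean mice. Of 42 tested members 0 were called, as were 0 of 575 tRFs (0%), and 3 members had an unadjusted p under 0.05, against 28 of 575 tRFs (4.87%); DESeq2 called 0 members, with 5 at an unadjusted p under 0.05. Of the 42, 15 had a positive log2 fold change, with a median of −0.27 beside 0.09 and 58.6% positive over all tRFs tested. All 10 form B members were negative, 11 of 15 form A members were, and 5 of 14 GluCTC members were. By length, 21 of 25 members of 23 to 34 nt were negative. At 35 to 40 nt 7 of 11 were positive, but 4 of 11 were with RLE scaling, DESeq2 or TMM over both tables, 3 of 11 without RCD 9 and 2 of 11 without RCD 10, so no direction is given for that band. Without AM608 8, RCD 10 and the 2 AM132 libraries with few 36-nt ends, 18 of 42 members were positive, 8 of 25 at 23 to 34 nt (median −0.27) and 5 of 11 at 35 to 40 nt (median −0.13).

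The form B 34-nt 5′-half had 39.4, 141 and 365 scaled CPM (lowest, median, highest) in 8 AM608 libraries, against 203, 265, 301 and 936 scaled CPM in 4 RCD libraries. The RCD value of 936 is RCD 10 and stands alone above the AM608 range, while the other 3 lie within it. Of the 8 AM608 libraries, 6 lie below every RCD library. The log2 fold change was −1.34 ± 0.60 (SE; edgeR adjusted p = 0.859). The form B 31-nt fragment had 90.3, 200 and 376 scaled CPM in AM608, against 166, 230, 586 and 1087 in RCD, where 2 libraries exceed every AM608 library and RCD 10 is again the highest. Its log2 fold change was −1.33 ± 0.61 (SE; edgeR adjusted p = 0.906). The form B 30-nt fragment had 36, 129 and 360 scaled CPM in AM608, against 119, 240, 464 and 634 in RCD, with −1.26 ± 0.59 (SE; edgeR adjusted p = 0.930). Without RCD 10, 16 of 42 members were positive (median −0.15) and 0 had an unadjusted p under 0.05. Without RCD 11, 13 of 43 were positive (median −0.40) and 11 had an unadjusted p under 0.05. Without RCD 12, 9 of 43 were positive and 5 had one, and without RCD 9 these counts were 13 of 42 and 2. With library totals and all 4 RCD libraries, 8 of 42 members had an unadjusted p under 0.05.

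AM132 was set against the same 4 RCD libraries, so the 2 comparisons share them. Of 42 tested members 0 were called and 0 had an unadjusted p under 0.05, against 0 (0%) and 21 (3.65%) of 575 tRFs; DESeq2 called 0 members and had 0 at an unadjusted p under 0.05. Positive log2 fold changes made up 21 of 42 (56.3% of all tRFs tested), with a median of 0.004 beside 0.06 over all tRFs tested. The form A 29-nt fragment had 915, 3325 and 4687 scaled CPM in 8 AM132 libraries, against 729, 2191, 2346 and 2632 in RCD, where RCD 12 is far below the other 3. Its log2 fold change was 0.61 ± 0.56 (SE; edgeR adjusted p = 0.994). The form B 33-nt 5′-half had 675, 870 and 1165 scaled CPM in AM132, against 444, 531, 744 and 1259 in RCD (log2 fold change 0.28 ± 0.30), and form C at 23 nt had 134, 567 and 925 scaled CPM, against 71.3, 398, 487 and 534 in RCD (0.54 ± 0.61; SE). For the form A 29-nt fragment 6 of 8 AM132 libraries lie above every RCD library, for form C 5 of 8 do, and for the form B 33-nt 5′-half all 8 lie within the RCD range. In AM608, 5 of 8 libraries lie above every RCD library for the form A 29-nt fragment, with 2 below, and 3 of 8 lie above for form C. The count of 21 positive members turned on the scaling, with 13 of 42 positive under RLE scaling and 12 of 42 with library totals. It also turned on single RCD libraries: 32 of 42 were positive without RCD 10 and 13 of 43 without RCD 11. Without the 4 libraries with few 36-nt ends 38 of 42 were positive, among them 25 of 25 at 23 to 34 nt (median 0.44, against 0.03 and 13 of 25 with them), with 0 calls.

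The GluCTC 36-nt fragment shows how far apart the lean libraries of batch 2 were, with 4742, 18191, 60783 and 64478 scaled CPM. Its levels in batch 2 were 1962 to 46377 scaled CPM in AM132 and 2615 to 65720 in AM608, and 2 of the 4 RCD libraries lie above every AM132 library. miRNAs of pituitary or epithelium, summed over 6 of 6 listed, ran to 19612 CPM of miRNA counts in AM132 6, 2095 in AM132 5 and 22526 in AM608 5, against at most 760 in every other library, and muscle miRNAs reached 3068 CPM in AM132 6, against at most 699 elsewhere. Without those 3 libraries 28 of 36 members were positive in AM132 against AM608, 0 with an unadjusted p under 0.05, and 10 of 41 in AM608 against RCD. The 6 brain miRNAs, none at 0, summed to 186007 to 349941 CPM in all libraries.

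The lean mice were also compared between batch 4 and batch 2, which the labels give as the same group. Of 41 tested members 0 were called, against 50 of 510 tRFs (9.80%; 4.51% higher and 5.29% lower in batch 4), and 6 had an unadjusted p under 0.05, against 25.9% of the 510. Positive log2 fold changes made up 16 of 41, against 48.0% of all tRFs tested, and 27 of 41 with library totals in place of TMM. DESeq2 called 2 of 41 members, both lower in batch 4, against 93 of 510 tRFs. The form A 34-nt 5′-half had 134, 436 and 577 scaled CPM in 8 batch 4 libraries, against 462, 594, 630 and 1933 in 4 batch 2 libraries, with a log2 fold change of −1.29 ± 0.46 (SE; edgeR adjusted p = 0.102, DESeq2 adjusted p = 0.0287). The form B 34-nt 5′-half had 62.7, 206 and 270 scaled CPM in batch 4, against 203, 265, 301 and 936 in batch 2, with −1.30 ± 0.50 (SE; edgeR adjusted p = 0.120, DESeq2 adjusted p = 0.0419). In both, the ranges overlap and the highest value is RCD 10. The form B 30-nt fragment averaged 184 ± 55.8 scaled CPM in batch 4 (SD, n = 8) and 364 ± 230 in batch 2 (SD, n = 4), with −1.11 ± 0.46 (SE; edgeR adjusted p = 0.155). All 7 tested members above 40 nt were positive, with 0 calls. Without RCD 10, 22 of 43 members were positive, with 0 calls. Oligodendrocyte miRNAs summed to 578 to 1122 CPM of miRNA counts in batch 4, against 2091 to 2276 in batch 2, and choroid plexus and ciliated-cell miRNAs had a median of 1978 in batch 4, against 5054 in batch 2. Brain miRNAs went the other way, with a median of 305599 in batch 4, against 254009 in batch 2. The part of these miRNAs in the differences was not tested.

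The members were also compared between batches in the obese mice. In the AM132 and AM608 libraries 9 of 35 members (25.7%) differed between batches 1, 2 and 3. That is a smaller share than over all tRFs tested, 235 of 494 (47.6%). Of the members 12 had an unadjusted p under 0.05, against 58.9% of all tRFs tested. RLE scaling gave 11 of 35 (31.4%) against 55.7% of all tRFs, and library totals gave 11 of 35 (31.4%) against 49.2%. TMM over both tables gave 16 of 35 (45.7%) against 64.4% of all tRFs. A filter of at least 10 CPM in 16 libraries gave 11 of 47 (23.4%) against 33.4% of 1577 tRFs. No filter on low counts gave 15 of 47 (31.9%) against 4.43% of 14976 tRFs. Those tRFs include the ones of low count, while the members were chosen by a count minimum. The percentages without a filter therefore cannot show whether batch moved the members more than other tRFs. The 9 are the GluCTC fragments of 33, 34, 35 and 36 nt, form A at 35 and 36 nt, and form B at 26, 35 and 36 nt. All 9 were lower in batch 2 than in batch 1 by the fitted value, by 0.45 to 1.04 on the log2 scale.

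The GluCTC 34-nt 5′-half had the smallest p of these. It had 3450, 13474 and 22608 scaled CPM in 16 libraries of batch 2 and 28437, 44101 and 107491 in 8 of batch 3, against 13034, 28309 and 45824 in 8 of batch 1. No library of batch 3 overlaps batch 2. The log2 differences from batch 1 were −0.84 for batch 2 and 0.73 for batch 3 (edgeR adjusted p = 1.17e-05). The form B 26-nt fragment had 102, 175 and 533 scaled CPM in batch 2 and 360, 895 and 1632 in batch 3, against 294, 498 and 1070 in batch 1, with −1.04 and 0.47 (edgeR adjusted p = 1.08e-04). The GluCTC 35-nt 5′-half had 5439, 37176 and 64203 scaled CPM in batch 2 and 58617, 83797 and 128296 in batch 3, against 22949, 63588 and 95166 in batch 1, with −0.68 and 0.32 (edgeR adjusted p = 0.00838).

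Other small RNAs moved with the batches too. Oligodendrocyte miRNAs, summed over 3 of 3 listed, had a median of 2226 CPM of miRNA counts in batch 2 (1515 to 3084) and 476 in batch 3 (241 to 830), against 509 in batch 1 (283 to 1682). Choroid plexus and ciliated-cell miRNAs, summed over 6 of 6, had 4757 in batch 2 (3570 to 5003) and 2149 in batch 3 (1393 to 2570), against 2003 in batch 1 (1710 to 2380). The pituitary or epithelium, muscle, erythroid and liver lists also had their highest median in batch 2. Brain miRNAs went the other way, with a median of 259743 in batch 2 and 334462 in batch 3, against 331950 in batch 1. The part of all these miRNAs in the differences between batches was not tested.

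**Figure D5:**
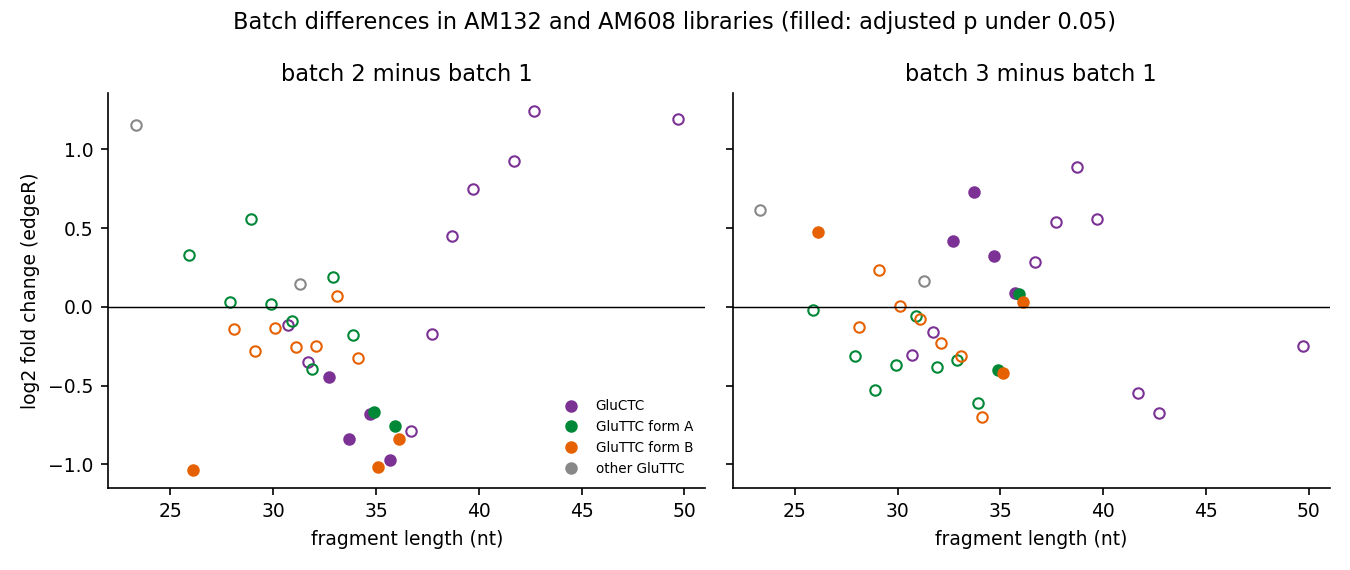
log2 fold change (edgeR; vertical) of the tested members against fragment length in nt (horizontal), for batch 2 minus batch 1 (left) and batch 3 minus batch 1 (right) in the AM132 and AM608 libraries, coloured by sequence form; filled points passed the test over both differences. The 9 filled points all lie below 0 in the left panel, at −0.45 to −1.04, and 8 of them are fragments of 33 to 36 nt.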

How the data were processed

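Small RNA was counted in 44 hypothalamus libraries made, per the labels, from 200 ng of RNA (miRNeasy, integrity number above 8.4) with the NEBNext small RNA kit on a NextSeq 500. The authors deposited raw read counts per tRF and per miRNA; FastQC is listed in the submitters' processing notes, and aligner, tRNA reference and build are not given in the sources used here. Group and number in each column name gave its sample, and 0 columns belonged to other samples. The members and lists were chosen with earlier results of these data known. Counts of the whole tRF table were fitted in edgeR 4.0.16 (R 4.3.3) after filterByExpr (minimum count 10, total 15) and TMM scaling, with quasi-likelihood F tests and Benjamini-Hochberg adjustment at 0.05; DESeq2 1.42.0 was an alternative. SE is the absolute log2 fold change over the square root of F; log2 CPM used a prior count of 2. Named members were the 4 of each fragment type with the highest mean share of a library's tRF counts. The 3 of smallest p in each comparison and those beside the count minimum were also named. Fits were tested on simulated data. Among 306 pairs of libraries of one group the smallest chi-square over its degrees of freedom was 5.40, so no library was counted as a duplicate. Depth of 38619 to 221358 tRF counts gives the rarest members few counts. The sequences of the GluCTC members are not reported here.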

Additional observations from a re-analysis of the deposited data

Results flagged for a closer look

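In 72 groups of 4 or 8 libraries, taking the members' summed share and the 8 most abundant members in each group and batch, 9 groups had a highest or lowest library far from the rest. For a single group chance gives about 5% (1 in 20). The groups share libraries and nested fragments, so the count of 9 is not set against chance. RCD 1 was the highest of the 8 RCD libraries of batch 4 for 4 GluCTC fragments, with 77909 scaled CPM at 33 nt (next 42957), 38010 at 34 nt (next 16801), 74890 at 35 nt (next 36724) and 101219 at 36 nt (next 41464). Among the 4 AM608 libraries of batch 1, AM608 4 had the highest summed share, 30.62%, with 22.3% next; the AM132 libraries of that batch reached 30.4%. AM608 9 stood above the other AM608 libraries of batch 2 for the GluCTC 33-nt 5′-half, with 53431 scaled CPM and 31183 next. For the form A 29-nt fragment in batch 1, AM132 1 had 4623 scaled CPM (next 1337) and AM608 2 had 5274 (next 1437). AM132 4 was the lowest of the 4 AM132 libraries of batch 1 for the GluCTC 31-nt fragment, with 13486 scaled CPM and 27712 next; the lowest AM608 library of that batch had 14985. The causes were not tested.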

How the results depend on the processing

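No member was called in AM132 against AM608 or in either group against RCD under any alternative run. AM132 against AM608 had 27 positive of 35 also with RLE scaling, library totals and TMM over both tables (medians 0.27 to 0.44, with the median of all tRFs at −0.07 to 0.02). In batch 1 alone 12 members were positive, and the form A 30-nt, form B 30-nt and form B 31-nt fragments turned to −0.037, −0.19 and −0.10; in batch 3 alone the GluCTC 36-nt and 31-nt fragments turned to 0.027 and −0.085. The cause was not tested. AM132 against RCD had 21 positive of 42, but 13 under RLE scaling, 12 with library totals and with DESeq2, and 38 without AM132 8, AM132 12, AM608 8 and RCD 10; RLE scaling moved the median of all tRFs to −0.15, against 0.06 with TMM. Leaving out 1 RCD library of batch 2 gave 13 to 32 positive there (form B 33-nt 5′-half −0.072 without RCD 11 to 0.73 without RCD 10), 9 to 16 in AM608 against RCD, and 16 to 22 in RCD batch 4 against batch 2, with 0 or 1 call (form B 30-nt fragment, −1.48 without RCD 12). That call stood beside 28 of 543 tRFs called without RCD 12. DESeq2 gave 2 calls between the RCD batches, the form A and form B 34-nt 5′-halves (−1.33 and −1.36), beside 93 of 510 tRFs. Library totals gave 27 positive of 41 there, where 16 were with TMM, and moved the median of all tRFs to 0.35, against −0.08. The batch differences in AM132 and AM608 had 16 member calls with TMM over both tables and 15 with no filter, where 9 were in the fit given above. Over all tRFs these fits called, in that order, 318 of 494, 663 of 14976 and 235 of 494.

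The replicate numbers in the labels are shared between groups. Correlations were taken on log2 CPM less the level of each group and batch, not on the levels themselves. For same-numbered AM132 and AM608 libraries this correlation was over 0.1 in 9 of 16 pairs (median 0.145, −0.58 to 0.76). Whether the numbers pair the samples was not tested, and the main fits treated the libraries as unpaired. With the replicate block in place of batch, 27 of 35 members were positive and 0 were called; with a block over libraries 9 to 12, 14 of 39 (AM608) and 16 of 39 (AM132) were positive against RCD, with 0 calls. Members of few counts, such as those at 0 in up to 11 libraries, could not show small differences at this depth.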
